A study of Mus musculus with 6 samples.

Results

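The mouse mitochondrial genome gave 37 of the 41449 rows of the expression table, chosen as the rows whose locus lies on the mitochondrial chromosome (chromosome M, GRCm38). They comprise 13 protein-coding genes, 2 ribosomal RNAs and 22 transfer RNAs, and each of the 37 stood at the position of 1 gene of the GENCODE M21 annotation, whose symbols are used here (mt-Nd1 for the table's ND1, mt-Co1 for COX1, mt-Tg for TrnG). The study asks what fibronectin, a glycoprotein of the extracellular matrix, does in the lens after birth. Lenses of 2-month-old mice were profiled by total RNA sequencing in 6 libraries of 2 lenses each. The 3 wild-type libraries (WT) came from C57BL/6 mice, and the 3 fibronectin conditional knockout libraries (FNcKO) came from mice of a mixed C57BL/6, 129 and FVB/N background. Genotype and strain background therefore cannot be told apart, also for mitochondrial haplotype, which passes through the mother. The sources used here do not give the Cre driver, its cell type or whether the wild-type mice carried a floxed allele. WT replicate 2 has no value in any of the 37 rows, so every mitochondrial result compares WT replicates 1 and 3 (n = 2) with FNcKO replicates 1, 2 and 3 (n = 3).

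Mitochondrial DNA is a compact circle that is transcribed from both strands into long precursors. Transfer RNA sequences punctuate these precursors, and enzymes that cut at the transfer RNAs release most of the messenger and ribosomal RNAs. The protein products are all subunits of respiratory complexes I, III and IV or of the ATP synthase (complex V), in which they sit beside subunits imported from the nucleus, and complex II is wholly nuclear. In the lens, mitochondria persist in the epithelium and the outer fiber cells, while maturing fiber cells destroy theirs along with their other organelles.

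A set of 5 short stretches shows how closely the genes are packed and how alike the shortest rows are in length. They come from the GENCODE M21 transcripts (GRCm38), are written 5′ to 3′ on the gene's own strand, and are all on the plus strand. The whole of mt-Atp8 (chrM:7766-7969) is shown first, with the 43 bases that it shares with mt-Atp6 in capitals. The last 40 bases of mt-Nd4l (chrM:10134-10173) follow, with the 7 bases shared with mt-Nd4 in capitals. In the 3 transfer RNAs, mt-Tg for glycine (chrM:9391-9458), mt-Tr for arginine (chrM:9808-9875) and mt-Tl1 for leucine (chrM:2676-2750), the capitals mark the anticodon.
mt-Atp8: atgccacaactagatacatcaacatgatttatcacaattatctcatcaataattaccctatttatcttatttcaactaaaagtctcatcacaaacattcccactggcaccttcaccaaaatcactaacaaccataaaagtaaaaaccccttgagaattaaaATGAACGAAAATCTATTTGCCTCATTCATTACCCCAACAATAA
mt-Nd4l, 3′ end: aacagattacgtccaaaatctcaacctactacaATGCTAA
mt-Tg: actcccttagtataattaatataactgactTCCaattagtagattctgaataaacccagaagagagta
mt-Tr: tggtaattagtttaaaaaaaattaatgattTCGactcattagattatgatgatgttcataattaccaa
mt-Tl1: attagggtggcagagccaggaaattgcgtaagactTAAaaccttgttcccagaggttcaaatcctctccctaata

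Values are FPKM, in which the authors divided each row's fragments by transcript length and library size. Fn1, the targeted gene, was listed at 0.135, 0.188 and 0.253 FPKM in WT and at 0.128, 0.0482 and 0.0942 FPKM in FNcKO, so the groups did not overlap, and its mean was too low for the test. The lens label fits the markers. Summed over 20 lens fiber markers, the level was 163448 and 168728 FPKM in WT and 162069 to 174864 FPKM in FNcKO. Over 18 lens epithelium markers it was 25539 and 27079 against 25108 to 28784 FPKM. Cryab alone held 23779 and 25264 FPKM of the epithelium sum in WT and 23134 to 26959 in FNcKO, so that sum mostly follows Cryab. The test called 2 of the 18 higher in FNcKO (Epha2 and Slc7a5) and 1 lower (Fzd6). It called 1 of the 20 fiber markers, higher, and 1.89% of all genes tested. Photoreceptor markers (14 genes) summed to 97.5 and 114 FPKM in WT and 57.0 to 57.3 in FNcKO. The library size that the values were scaled to was estimated for WT replicate 1 by means of single-exon genes, where small values rise in whole fragments. In the other libraries it was set relative to WT replicate 1 by 1 value per library. That value was the smallest above 0 among transfer RNA rows of 67 bases, taken as 1 fragment. It was 126 and 151 FPKM in WT replicates 1 and 3, and 187, 189 and 201 FPKM in FNcKO replicates 1 to 3. The transfer RNA rates below rest on the same values. Rounded, the library size was 16240000 and 13510000 fragments in WT replicates 1 and 3, and 10940000, 10810000 and 10150000 in FNcKO replicates 1 to 3. Of 42 single-exon genes used, 33 lay on this scale and 7 at steps of 0.5, so the fragment numbers below are 2 times higher if the smaller step is 1 fragment. These sizes include any scaling between libraries that the authors applied and need not be the number of fragments sequenced. The labels call the libraries of a genotype biological replicates.

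Neither ribosomal RNA differed between genotypes beyond the spread of its libraries. mt-Rnr1, the 12S RNA of the small subunit of the mitochondrial ribosome (chrM:70-1024), was listed at 3771 and 3215 FPKM in WT and at 4463, 3055 and 4157 FPKM in FNcKO. mt-Rnr2, the 16S RNA of the large subunit (chrM:1094-2675), was listed at 3420 and 3128 FPKM in WT and at 3670, 2830 and 3646 FPKM in FNcKO. In both genes the lowest and the highest library were FNcKO libraries, replicate 2 and replicate 1, and the WT values lay between them. The log2 change from WT to FNcKO, on the log2(FPKM + 1) scale, was 0.14 for mt-Rnr1 (SE 0.203) and 0.04 for mt-Rnr2 (SE 0.158). By limma, with p-values adjusted after Benjamini-Hochberg across the 10149 genes of the fit, the adjusted p was 0.770 and 0.931, and the 95% intervals ran from -0.38 to 0.67 and from -0.37 to 0.45. These were among the most abundant RNAs of the table: mt-Rnr1 ranked 67 and mt-Rnr2 ranked 68 by mean FPKM among the genes tested. The kit sequences total RNA, and how much cytoplasmic ribosomal RNA it removed was not analysed here.

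Of the 13 protein genes, none rose or fell past the test, and none was past an unadjusted p of 0.05. The 2 ribosomal RNAs gave the same count of 0. Over all genes tested limma called 192 of 10149 (1.89%), and among the 742 tested rows without a value in WT replicate 2 it called 8 (1.08%). In none of these 15 mitochondrial rows did the genotypes stand apart with no overlap, while 241 of those 742 rows (32.5%) did. The 95% intervals for the 15 rows reach from a fold of 0.645 for mt-Nd6 to a fold of 1.61 for mt-Nd1, and each includes 1. In bulk lens RNA, fewer cells of a type and less RNA per cell cannot be told apart.

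**Figure D1:**
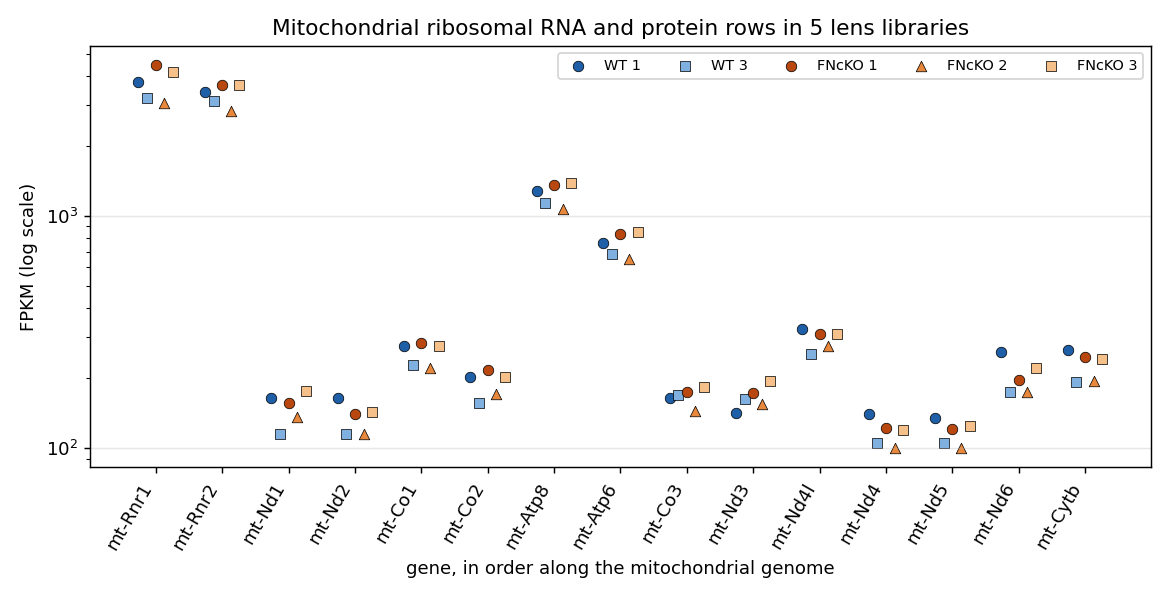
FPKM (log scale) of the 2 mitochondrial ribosomal RNAs and the 13 protein genes, in order along the mitochondrial genome, with 1 point per library (blue WT replicates 1 and 3, orange FNcKO replicates 1 to 3). The ribosomal RNAs lie between 2830 and 4463 FPKM, mt-Atp8 and mt-Atp6 stand above the other protein genes, and the genotypes overlap in every gene.

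Complex I, NADH dehydrogenase, takes electrons from NADH and pumps protons, and 7 of its subunits are mitochondrial. mt-Nd1, which forms part of the quinone channel, was listed at 164 and 114 FPKM in WT and at 155, 136 and 177 FPKM in FNcKO. Its WT libraries differed by 1.43 times, and 2 of the 3 FNcKO libraries lay between them. The log2 change of mt-Nd1 was 0.18 (SE 0.197, limma adjusted p = 0.696). mt-Nd2, a subunit of the proton-pumping membrane arm, stood at 164 and 114 FPKM against 140, 115 and 142, and all 3 FNcKO values lay inside the WT range. mt-Nd3, a small membrane subunit, ran the other way in WT, at 141 FPKM in replicate 1 and 163 in replicate 3, and stood at 173, 155 and 195 FPKM in FNcKO. Its log2 change of 0.19 (SE 0.131, 95% interval -0.14 to 0.53) had the smallest limma adjusted p of the 15 rows, 0.511.

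The other complex I genes were as close. mt-Nd4l, the small subunit whose end overlaps mt-Nd4, stood at 326 and 253 FPKM in WT and at 310, 275 and 309 FPKM in FNcKO. mt-Nd4 and mt-Nd5 encode the large antiporter-like subunits of the membrane arm. mt-Nd4 was listed at 140 and 105 FPKM in WT and at 122, 99.9 and 119 in FNcKO, and mt-Nd5 at 135 and 105 against 120, 100.1 and 124. In both, WT replicate 1 was the highest library and FNcKO replicate 2 the lowest. Their log2 changes were -0.10 and -0.06, with limma adjusted p of 0.801 and 0.889.

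mt-Nd6 is the only protein gene on the minus strand (chrM:13552-14070), and it meets mt-Nd5 tail to tail with 14 bases in common. It was listed at 258 and 174 FPKM in WT and at 197, 175 and 221 FPKM in FNcKO. WT replicate 1 stood above the rest, while WT replicate 3 was the lowest library, just below FNcKO replicate 2. The log2 change of mt-Nd6 was -0.11 (SE 0.203, limma adjusted p = 0.825). As a share of the summed FPKM of the 12 plus-strand genes, mt-Nd6 stood at 6.44% and 5.09% in WT and at 4.77%, 5.24% and 5.26% in FNcKO. The balance between the strands thus overlapped between genotypes (exact two-sided permutation p = 0.6, where 2 against 3 libraries cannot give less than 0.2). The kit keeps strand, but the use of strand in counting is not given in the sources used here.

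Complex III passes electrons from ubiquinol to cytochrome c, and mt-Cytb is its single mitochondrial subunit. mt-Cytb was listed at 264 and 193 FPKM in WT and at 246, 193 and 242 FPKM in FNcKO. The WT mean was 228 ± 50.2 FPKM (SD, n = 2), and the FNcKO mean was 227 ± 29.3 FPKM (SD, n = 3). The log2 change of mt-Cytb was 0.00 (SE 0.186, limma adjusted p = 0.996), with a 95% interval from -0.48 to 0.48.

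Complex IV, cytochrome c oxidase, hands electrons to oxygen, and mt-Co1, mt-Co2 and mt-Co3 form its catalytic core. mt-Co1 stood at 275 and 227 FPKM in WT and at 282, 220 and 275 FPKM in FNcKO. mt-Co2 stood at 201 and 156 FPKM in WT and at 216, 170 and 201 FPKM in FNcKO. mt-Co3 stood at 164 and 169 FPKM in WT and at 174, 144 and 183 FPKM in FNcKO. mt-Co3 had the closest WT libraries of the set. mt-Co3 averaged 166.6 ± 3.17 FPKM in WT (SD, n = 2) and 166.9 ± 20.7 FPKM in FNcKO (SD, n = 3), and its log2 change was -0.01 with a 95% interval from -0.33 to 0.32. The log2 changes of mt-Co1 and mt-Co2 were 0.04 and 0.14, with limma adjusted p of 0.918 and 0.714.

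Complex V makes ATP from the proton gradient, and mt-Atp8 and mt-Atp6 encode membrane subunits of it from overlapping frames. mt-Atp8 was listed at 1275 and 1140 FPKM in WT and at 1355, 1074 and 1379 FPKM in FNcKO. mt-Atp6, which lines the proton path, was listed at 765 and 683 FPKM in WT and at 832, 651 and 848 FPKM in FNcKO. In both genes FNcKO replicate 2 was the lowest library and FNcKO replicate 3 the highest, on either side of WT. The log2 changes were 0.06 for mt-Atp8 and 0.09 for mt-Atp6, with limma adjusted p of 0.868 and 0.800. The ratio of mt-Atp8 to mt-Atp6 was 1.666 and 1.670 in WT and 1.629, 1.650 and 1.625 in FNcKO. The groups of this ratio did not overlap, and the FNcKO mean was 0.980 of the WT mean (exact two-sided permutation p = 0.2, the smallest possible here). mt-Atp8 rested on an estimated 361 to 644 fragments per library, and how much of this small difference is counting error was not tested. The 2 genes share bases, so their values need not be independent.

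**Figure D2:**
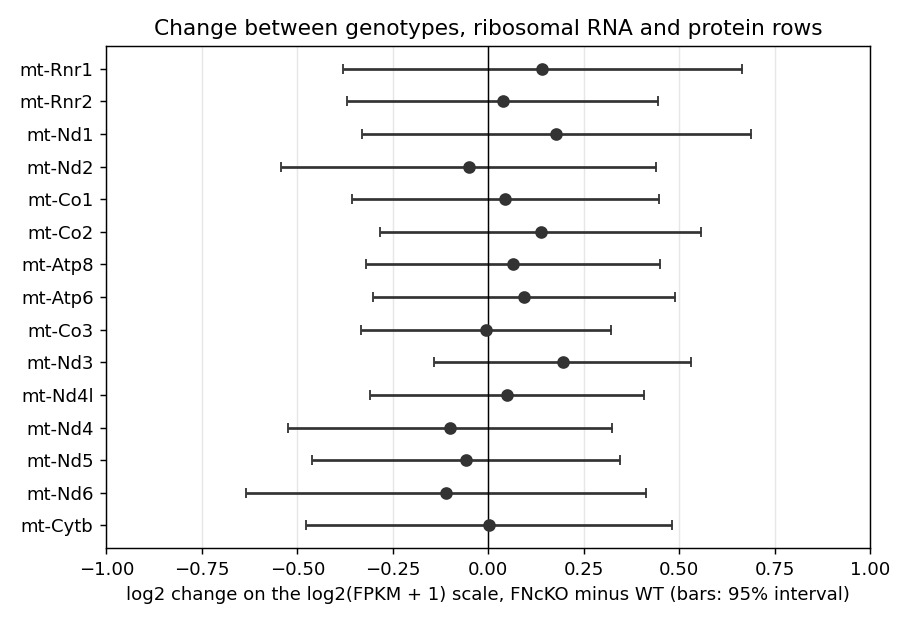
Log2 change (FNcKO minus WT, log2(FPKM + 1) scale) of the 2 ribosomal RNAs and 13 protein genes, with 95% intervals from limma. Every interval includes 0, from mt-Nd6 at -0.11 to mt-Nd3 at 0.19.

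By FPKM the order of the protein genes over the 5 libraries was mt-Atp8, mt-Atp6, mt-Nd4l, mt-Co1, mt-Cytb, mt-Nd6, mt-Co2, mt-Co3, mt-Nd3, mt-Nd1, mt-Nd2, mt-Nd4 and mt-Nd5. mt-Atp8 and mt-Atp6 were separated from each other and from mt-Nd4l in every library, whereas the ranges of all later neighbours overlapped. This order depends on how FPKM treats short transcripts. From the value of 1 fragment, the length by which FPKM divides was 202 bases under the full length in long single-exon genes, while short rows lost fewer bases. mt-Atp8 with 204 bases counted as about 31.1 bases long, an estimate from other rows of 205 bases. In fragments, mt-Atp6 had 5955 in WT replicate 1, and mt-Atp8 had 644. Per 100 bases of full length, scaled to the library size of WT replicate 1, mt-Atp6 led with 864 fragments, mt-Co1 had 361, mt-Atp8 had 308 and mt-Cytb had 304. mt-Nd4l moved from the third place by FPKM to the ninth by fragments per base, with 183 per 100 bases, and mt-Nd3 was the last with 124. Over the 13 genes, which share libraries and precursors, Spearman's rho with length was -0.59 for FPKM and -0.13 for fragments per base. How the authors' counting shared out fragments in the bases that overlapping genes have in common is not given in the sources used here.

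The fragments behind these values were many. In WT the 13 protein genes held 32530 and 21728 fragments, and in FNcKO 21399, 17072 and 20107, between 0.158% and 0.200% of the library size. The 2 ribosomal RNAs held 67096 to 122732 fragments, or 0.620% to 0.842%. The fewest in a protein gene were 269, for mt-Nd3 in FNcKO replicate 2. In genes with few fragments, such as mt-Nd3 with 367 and 352 in WT, counting error weighs more, and it was not set against their gene-specific differences. For the sums over genes, counting error was small beside the differences between libraries.

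Those differences were shared by the genes. WT replicate 1 lay above the gene's mean over the 5 libraries in 11 of 13 protein genes, and WT replicate 3 in 1 of 13, mt-Co3. FNcKO replicate 1 lay above it in 12 of 13, with mt-Nd6 as the exception. FNcKO replicate 2 lay above it in 0 of 13, and FNcKO replicate 3 in 13 of 13. The mean deviation of the 13 genes on the log2 scale was 0.13, -0.17, 0.09, -0.18 and 0.13 in that order of libraries. A shift common to all 13 genes held 72.2% of their summed squared deviations. The 2 ribosomal RNAs moved likewise, with mean deviations of 0.04, -0.14, 0.21, -0.25 and 0.15. Each genotype thus held libraries at both ends: FNcKO replicate 2 beside WT replicate 3, and FNcKO replicates 1 and 3 beside WT replicate 1.

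**Figure D3:**
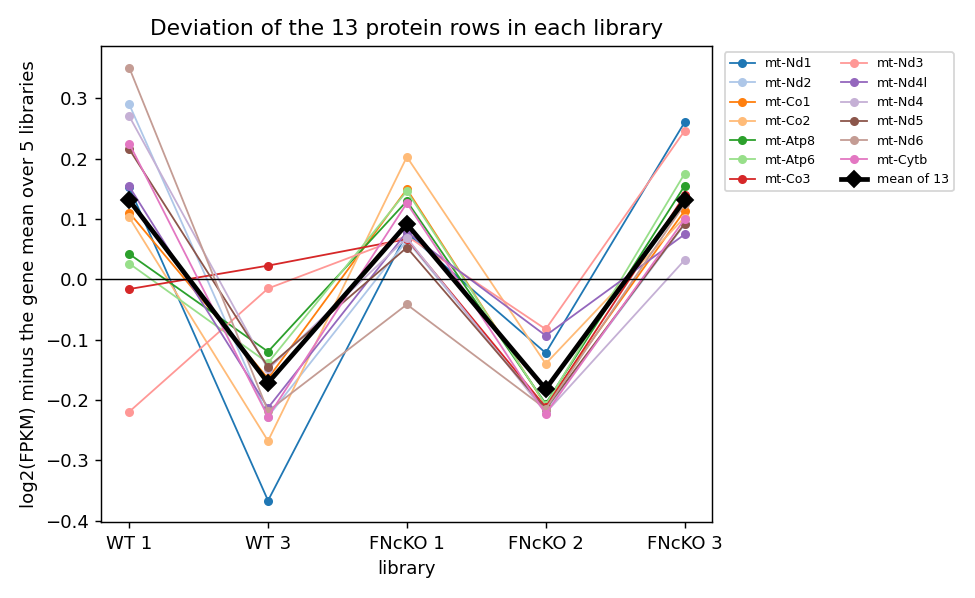
Deviation of log2 FPKM from the gene's mean over 5 libraries for each of the 13 protein genes, with their mean in black. WT replicate 3 (mean -0.17) and FNcKO replicate 2 (mean -0.18) lie low, and WT replicate 1 and FNcKO replicates 1 and 3 lie high.

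The 2 WT libraries also differed from gene to gene. The ratio of WT replicate 1 to WT replicate 3 ran from 0.868 for mt-Nd3 and 0.973 for mt-Co3 through 1.119 for mt-Atp8 and 1.121 for mt-Atp6 to 1.43 for mt-Nd1 and mt-Nd2 and 1.48 for mt-Nd6. The low end holds mt-Atp8, mt-Atp6, mt-Co3 and mt-Nd3, which are neighbours on the genome between positions 7766 and 9806. Between FNcKO replicates 1 and 2 the same ratio ran from 1.11 to 1.28, and between replicates 3 and 2 from 1.123 to 1.304. WT replicate 3 weighs on the direction of the log2 changes: without it, 4 of the 15 ribosomal RNA and protein rows lay above 0, and without WT replicate 1, 14 of 15 did, against 10 of 15 with both.

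Summed over genes, the picture was the same. The 13 protein genes summed to 4273 and 3595 FPKM in WT and to 4322, 3507 and 4415 FPKM in FNcKO. The means were 3934 ± 479 (SD, n = 2) and 4081 ± 499.6 (SD, n = 3), a ratio of 1.04 (exact two-sided permutation p = 0.8). The ribosomal RNAs summed to 7191 and 6343 FPKM in WT and to 8133, 5885 and 7804 FPKM in FNcKO, a ratio of 1.07 (exact permutation p = 0.6). The ratio of ribosomal to protein RNA was 1.68 and 1.76 in WT and 1.88, 1.68 and 1.77 in FNcKO (exact permutation p = 0.8). mt-Rnr1 to mt-Rnr2 stood at 1.10 and 1.03 in WT and at 1.22, 1.08 and 1.14 in FNcKO (exact permutation p = 0.4).

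As a share of all FPKM in the library the values did separate. The protein genes took 0.239% and 0.213% in WT and 0.272%, 0.267% and 0.284% in FNcKO, a ratio of means of 1.21. The ribosomal RNAs took 0.403% and 0.376% in WT and 0.512%, 0.449% and 0.502% in FNcKO, a ratio of 1.25. In both the groups did not overlap, and the exact two-sided permutation p of 0.2 is the smallest that 2 against 3 libraries allow. The denominator moved with genotype: all rows summed to 1785645 and 1689031 FPKM in WT replicates 1 and 3, and to 1589122, 1312145 and 1555309 FPKM in FNcKO. A single row, LOC108167755 on chromosome 1, the most abundant of the table, stood at 443341 and 344817 FPKM in these WT libraries and at 256342, 228841 and 288706 FPKM in FNcKO. Its FNcKO mean was lower by 136116 FPKM (no call by limma, adjusted p = 0.369), and the mean total was lower by 251812 FPKM. Without this row the totals were 1342300 and 1344210 FPKM in WT and 1332780, 1083300 and 1266600 FPKM in FNcKO, so FNcKO replicate 1 stood close to WT. Of that reduced total the protein genes took 0.318% and 0.267% in WT and 0.324%, 0.324% and 0.349% in FNcKO, a ratio of 1.13, and for the ribosomal RNAs the ratio was 1.17. The groups still did not overlap, but WT replicate 1 lay just below the FNcKO libraries (exact permutation p = 0.2 for both).

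The direction of the mitochondrial rows thus depends on the scaling. At equal FPKM totals, 15 of the 15 ribosomal RNA and protein rows lay above 0 with a median log2 change of 0.29, while the median of all genes tested moved from -0.04 to 0.15, and 0 of the 15 passed the limma test. At equal totals without LOC108167755, a scaling chosen after seeing the data, 15 of 15 again lay above 0, with a median of 0.19 against 0.11 for all genes and 0 calls.

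Shares within the protein genes do not depend on scaling. Groups did not overlap in 2 of the 13 genes, mt-Nd4 and mt-Nd5. In FPKM rather than shares, they did not overlap in 32.5% of the 742 tested rows without WT replicate 2. mt-Nd4 took 3.29% and 2.92% of the summed protein FPKM in WT and 2.83%, 2.85% and 2.70% in FNcKO. mt-Nd5 took 3.16% and 2.92% in WT and 2.79%, 2.85% and 2.80% in FNcKO. Over the 13 shares tested, the smallest Benjamini-Hochberg adjusted p of the exact permutation test was 0.945. The largest share belonged to mt-Atp8, at 29.8% and 31.7% in WT and 30.6% to 31.3% in FNcKO.

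The transfer RNAs, which carry amino acids to the mitochondrial ribosome, were measured by few fragments. The value of 1 fragment at each length was taken as the largest step that made all their values whole multiples, within a tolerance of 0.03 of a fragment. That all 48 of their values above 0 were whole multiples therefore follows from the search. In other rows of the same lengths, which the search did not use, 17 of 17 values above 0 were whole multiples too. A transcript of 68 bases had an effective length of 0.523 bases, so 1 fragment was worth 118 FPKM in WT replicate 1, against 0.0459 FPKM for mt-Co1. Over the 5 libraries the 22 rows held 198 fragments. Of the 22 rows, 3 were above 0 in all 5 libraries, 13 in some, and 6 in none. Those 6, mt-Tc, mt-Ty, mt-Tk, mt-Tr, mt-Th and mt-Ts2, were at a count of 0, which allows up to 3 fragments in a library.

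**Figure D4:**
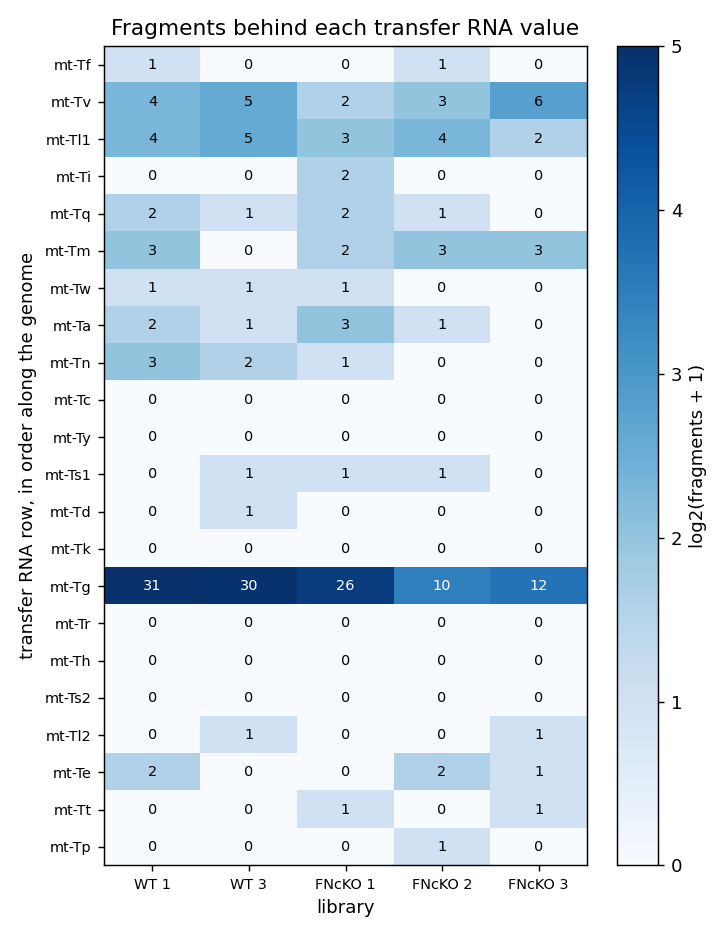
Fragments behind the value of each of the 22 transfer RNA rows in each of 5 libraries, with the color on the log2(fragments + 1) scale. mt-Tg holds 10 to 31 fragments per library, and no other row exceeds 6.

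mt-Tg, the transfer RNA for glycine, which lies between mt-Co3 and mt-Nd3, held 109 of the 198 fragments (55.1%). The WT libraries had 31 and 30 of them and the FNcKO libraries 26, 10 and 12, which the table lists as 3653 and 4250 FPKM and as 4548, 1770 and 2262 FPKM. FNcKO replicates 2 and 3 were low, and FNcKO replicate 1 was the highest by FPKM, above both WT libraries. Its rate per 1000000 fragments of library size was 1.91 (95% Poisson interval 1.30 to 2.71) and 2.22 (1.498 to 3.17) in WT. In FNcKO it stood at 2.38 (1.55 to 3.48), 0.925 (0.443 to 1.70) and 1.18 (0.611 to 2.06), where the intervals cover counting error only. The ratio of means was 0.724 (exact two-sided permutation p = 0.6), and the limma log2 change was -0.58 (SE 0.424, adjusted p = 0.547). mt-Tr, shown above with the same length of 68 bases and 1 gene further along, had 0 fragments in all 5 libraries.

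The other 2 rows above 0 in every library lie on either side of mt-Rnr2. mt-Tv, the transfer RNA for valine, had 4 and 5 fragments in the WT libraries and 2, 3 and 6 in the FNcKO libraries. mt-Tl1, for leucine, had 4 and 5 in WT and 3, 4 and 2 in FNcKO. At these numbers a single fragment moves a value by 78.0 to 111 FPKM in WT replicate 1, and neither row passed the test (limma adjusted p = 0.977 and 0.851). Of the 16 transfer RNA rows tested, 0 passed the limma test and 0 were past an unadjusted p of 0.05. The groups did not overlap in 1, mt-Tn for asparagine, with 3 and 2 fragments in the WT libraries and 1, 0 and 0 in the FNcKO libraries (limma adjusted p = 0.312), a gene named after its values were seen. That is 1 of 16 rows, below the 32.5% of the 742 tested rows without WT replicate 2.

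All transfer RNA rows together held 53 and 48 fragments in the WT libraries and 44, 27 and 26 in the FNcKO libraries. Their rate per 1000000 fragments of library size was 3.26 and 3.55 in WT and 4.02, 2.50 and 2.56 in FNcKO, with means of 3.41 ± 0.205 (SD, n = 2) and 3.03 ± 0.863 (SD, n = 3). The ratio was 0.888 (exact two-sided permutation p = 0.6). Leaving out mt-Tg, which was chosen after the values were seen, the rates were 1.34 ± 0.0157 in WT and 1.53 ± 0.138 in FNcKO (exact permutation p = 0.2). The table's summed transfer RNA value, 4412 to 7347 FPKM, was therefore as large as that of the protein genes while resting on 26 to 53 fragments per library.

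The nuclear genes that build and serve the same complexes were read from lists. None of the 143 genes tested over all nuclear lists passed the limma test, and these 143 include the 2 candidate nuclear copies described below. Among 36 nuclear complex I subunits tested, 28 had a log2 change under 0, with a median of -0.09, against a median of -0.04 over all genes tested. The counts under 0 were 7 of 9 for complex III (median -0.06), 10 of 13 for complex IV (median -0.11) and 16 of 17 for complex V (median -0.10). Complex II, which has no mitochondrial gene, had 4 of 4 under 0 (median -0.15). The numbers past an unadjusted p of 0.05 were 5 for complex I, 2 for complex IV, 3 for complex V and 0 for complexes II and III, where 18.1% of all genes tested were past it. At equal FPKM totals these medians were above 0, at 0.15 for complex I, 0.06 for complex II, 0.18 for complex III, 0.13 for complex IV and 0.14 for complex V, against 0.15 for all genes.

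The closest to the threshold was Cox6c, a small subunit of cytochrome c oxidase, at 402, 398 and 400 FPKM in the 3 WT libraries and at 305, 336 and 296 FPKM in FNcKO. Its groups did not overlap, and the log2 change was -0.36 (SE 0.0740, limma adjusted p = 0.0805). Ndufa4, a subunit that travels with complex IV, stood at 61.8, 66.7 and 68.2 FPKM in WT and at 54.7, 49.5 and 51.3 FPKM in FNcKO (log2 change -0.33, limma adjusted p = 0.0870). In complex I, Ndufa13 had a log2 change of -0.24 (adjusted p = 0.154) and Ndufa9 of -0.29 (adjusted p = 0.162). In complex V the values were -0.39 (adjusted p = 0.166) for Atp5g2, which encodes the rotating c ring, and -0.16 (adjusted p = 0.241) for Atp5a1, the alpha subunit. For complex III they were 0.18 (adjusted p = 0.468) for Uqcrc2 and -0.08 (adjusted p = 0.668) for Uqcr10. For complex II they were -0.23 (adjusted p = 0.300) for the flavoprotein Sdha and -0.14 (adjusted p = 0.447) for the membrane anchor Sdhc.

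Set beside each other, the mitochondrial and nuclear subunits of a complex stood at different levels and varied differently among libraries. The geometric mean of the 13 mitochondrial genes was 249 and 202 FPKM in WT and 242, 200.4 and 249 FPKM in FNcKO, a ratio of means of 1.02. The geometric mean of the 75 nuclear subunits of complexes I, III, IV and V was 44.2 and 46.9 FPKM in the same WT libraries and 43.5, 43.8 and 39.7 FPKM in FNcKO, a ratio of 0.929. The nuclear groups did not overlap in the authors' scaling, by little (exact two-sided permutation p = 0.2). The ratio of mitochondrial to nuclear subunits was 5.63 and 4.30 in WT and 5.57, 4.57 and 6.28 in FNcKO (exact permutation p = 0.6). FNcKO replicate 3, which was high in mitochondrial genes, was the lowest in nuclear subunits, with 8 of 75 above their own mean, and WT replicate 3, which was low in mitochondrial genes, had 63 of 75 above. By complex, the ratio was lowest in complex IV, at 2.63 to 3.96, and highest in complex V, at 12.5 to 18.3, where mt-Atp8 enters with its short effective length.

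**Figure D5:**
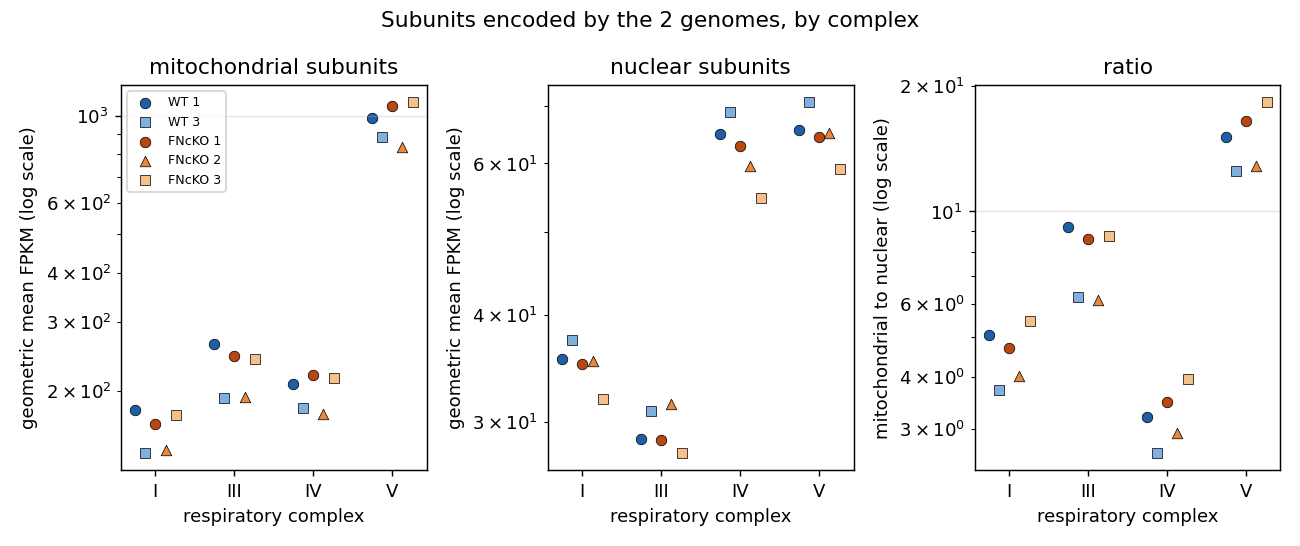
Geometric mean FPKM (log scale) of the mitochondrial subunits (left) and nuclear subunits (middle) of complexes I, III, IV and V, and their ratio (right), with 1 point per library. Mitochondrial levels overlap between genotypes in every complex, and nuclear levels, as the authors scaled them, are lower in FNcKO without overlap in complexes I, IV and V but not III, a direction that turns at equal FPKM totals, where the median log2 changes are 0.15, 0.13 and 0.14.

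The factors that copy and process mitochondrial RNA gave no call either. Of 10 tested genes of mitochondrial transcription and replication, 4 had a log2 change under 0 (median 0.01), and 1 was past an unadjusted p of 0.05. That gene was Rnaseh1, which removes RNA from RNA-DNA hybrids, at 2.42, 1.97 and 2.23 FPKM in WT and at 1.68, 1.65 and 1.43 FPKM in FNcKO (log2 change -0.31, limma adjusted p = 0.155). Tfam, which packages mitochondrial DNA and starts its transcription, stood at 4.19, 3.64 and 4.17 FPKM in WT and 3.58, 3.57 and 3.35 FPKM in FNcKO (log2 change -0.15, adjusted p = 0.328). Of 22 tested genes of RNA processing and decay, 16 lay under 0 (median -0.08), and 3 were past an unadjusted p of 0.05. Mtpap, the polymerase that adds the poly(A) tails which complete several mitochondrial stop codons, stood at 4.61, 4.93 and 5.38 FPKM in WT and at 3.29, 3.91 and 3.90 FPKM in FNcKO. Its groups did not overlap, and the log2 change was -0.35 (limma adjusted p = 0.123). Mto1, which modifies mitochondrial transfer RNAs, had a log2 change of -0.35 (adjusted p = 0.229, WT n = 2).

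Regulators of mitochondrial biogenesis, markers of mitochondrial mass and genes of organelle removal complete the set. Of 6 biogenesis regulators tested, 2 lay under 0 (median 0.08), with Yy1 at 0.08 (limma adjusted p = 0.532) and Nrf1 at 0.18 (adjusted p = 0.608). Of 16 mass markers, 13 lay under 0 (median -0.11). Among them, Vdac1, the outer membrane channel, was at -0.19 (adjusted p = 0.221), and Tomm22, an import receptor, was at -0.32 (adjusted p = 0.225). Of 9 mitophagy and organelle loss genes, 4 lay under 0 (median 0.04). Park2, the ubiquitin ligase parkin, was listed at 2.62, 2.68 and 2.51 FPKM in WT and at 3.82, 4.04 and 3.08 FPKM in FNcKO, with no overlap (log2 change 0.36, limma adjusted p = 0.135). Alox15, a lipoxygenase that acts on organelle membranes, was listed at 0.807, 0.839 and 0.569 FPKM in WT and at 0.909, 2.30 and 3.56 FPKM in FNcKO (log2 change 0.82, adjusted p = 0.254). At equal FPKM totals the median log2 changes were 0.21 for transcription and replication, 0.08 for processing, 0.29 for biogenesis, 0.12 for mass and 0.20 for organelle loss.

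Most mitochondrial protein genes have pieces copied into the nuclear genome. At 90% identity over at least 25% of the gene, 11 of the 13 protein genes matched annotated nuclear pseudogenes, 16 in all, and 7 of the 13 had a copy of at least 99% identity. These 7, parts of mt-Co1 and mt-Nd4 and nearly all of mt-Co2, mt-Atp6, mt-Co3, mt-Nd3 and mt-Nd4l, match a block on chromosome 1 from 24611535 to 24616197 (GRCm38). None of the 16 has a row of its own in the table, and how fragments that fit both places were treated is not given in the sources used here. No ribosomal or transfer RNA row had such an annotated copy. A further list of candidate nuclear copies had 2 of 10 genes tested (Gm10221 and LOC108167755, the row described above), both under 0 with a median log2 change of -0.24 and 0 past the test. Neither was among the 16 matches. The search covered only GENCODE M21 transcripts, so it cannot show a match for a row outside that annotation. How LOC108167755 lies to the block on chromosome 1 was not tested.

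Some marker sums of other tissues moved with genotype in these 5 libraries, as the photoreceptor sum did, and their part in the mitochondrial values was not tested. Ciliary body and iris markers (9 genes in the table) summed to 34.1 and 38.8 FPKM in WT and 60.3 to 78.7 in FNcKO. Much of that sum was Optc, at 19.8 and 20.8 against 31.4 to 49.5 FPKM, and Aqp1, at 4.19 and 6.14 against 11.1 to 18.4 FPKM. Of the 7 ciliary and iris genes tested, 1 had a log2 change under 0, Aqp4. Pigment cell markers (10 genes) summed to 12.5 and 20.7 against 7.32 to 9.07 FPKM, muscle markers (8 genes, Actc1 at 0) to 97.4 and 107 against 66.3 to 79.2 FPKM, and endothelial markers (6 genes, Cdh5 at 0) to 1.34 and 1.41 against 1.42 to 2.13 FPKM. Acta2 alone held 93.0 and 105 FPKM of the muscle sum in WT and 64.2 to 77.2 in FNcKO, so that sum mostly follows Acta2. In the sums of the remaining tissues the genotypes overlapped. Red cell markers (6 genes) stood at 6.95 to 9.14 against 8.11 to 9.83 FPKM, macrophage and leukocyte markers (8 genes) at 1.90 to 3.81 against 0.748 to 2.87, and corneal markers (5 genes, Kera and Krt12 at 0) at 25.7 to 30.7 against 13.6 to 43.4 FPKM. In the red cell sum, WT replicate 3 and FNcKO replicate 2 were the lowest libraries. In Bpgm, its 1 gene tested, FNcKO replicate 3 was the lowest at 6.45 FPKM, against 6.78 in WT replicate 3 and 6.76 in FNcKO replicate 2.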

How the data were processed

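The deposited table holds FPKM values for 6 libraries, which the authors computed. The submitters' processing notes name Cuffdiff 2.2.1, TopHat2 2.1.0, cutadapt 1.12 and FastQC and the builds mm10 and GRCm38.p5. The sources used here do not give the order of steps, the annotation or the use of strand. Libraries were made with a strand-preserving total RNA kit for low input, per the labels' protocols.

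From the deposited FPKM, log2(FPKM + 1) was computed, and the 10149 genes averaging 1 FPKM or more were tested for a difference between genotypes in R 4.3.3 with limma 3.58.1 (trend, two-sided, Benjamini-Hochberg, threshold 0.05). Single values were compared by exact permutation in Python 3.11.15 with SciPy 1.17.1. Nuclear copies were sought among GENCODE M21 transcripts with BLAST 2.17.0. Named were every protein and ribosomal RNA row, transfer RNA rows above 0 in all 5 libraries or past the test, and of each nuclear list the members past the test, else the 2 with the smallest p. The members and lists were chosen with earlier results of these data known. The fit was tested on simulated data. Start positions were raised by 1. The alternatives changed scaling, pseudocount, filter, trend, replicate block and libraries.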

Additional observations from a re-analysis of the deposited data

How the results depend on the processing

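Over 16 alternatives, the 15 ribosomal RNA and protein rows gave 0 calls, with a smallest limma adjusted p of 0.176 (quantile normalization), and 45 of their 240 log2 changes switched sign. The cause of these switches was not tested. The 143 nuclear genes on lists (fewer or more under other filters) also gave 0 calls in each of the 16. The 192 calls over all genes became 89 at equal FPKM totals, 86 at equal totals without crystallins, 68 at equal totals without LOC108167755, 101 with no filter on low values, and 48 to 111 on leaving out 1 library. At equal totals, and at equal totals without crystallins, the summed protein FPKM gave a ratio of 1.23 and 1.39, and the ribosomal RNAs 1.27 and 1.43, while the median log2 change of all genes was 0.15 and 0.29. Calls among transfer RNAs ranged from 0 to 2 on leaving out 1 FNcKO library: mt-Tw and mt-Tn without FNcKO replicate 1, and mt-Tt without FNcKO replicate 2. They rest on few fragments, as mt-Tw held 3, mt-Tn 6 and mt-Tt 2 over the 5 libraries. Transfer RNA calls without WT replicate 1 or 3 are not given, because a single WT library is then left.

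Replicate numbers are shared by the genotypes, but same-numbered libraries did not deviate together (correlations of -0.03, -0.05 and -0.05 over 9407 genes). With 3 libraries per genotype these correlations cannot exclude a shared batch, and the main fit did not pair libraries by number. With a replicate block, 14 genes were called in all and 1 transfer RNA, mt-Tt, which held 2 fragments over the 5 libraries. The log2 change turned to 0.046 for mt-Nd2, 0.099 for mt-Co3 and 0.037 for mt-Nd5.

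Signs turned under scaling as follows, with log2 changes given for equal totals and then for equal totals without crystallins: mt-Nd2 0.19 and 0.37, mt-Co3 0.24 and 0.42, mt-Nd4 0.14 and 0.32, mt-Nd5 0.19 and 0.37, mt-Nd6 0.13 and 0.32, mt-Tl1 0.091 and 0.27, Tfam 0.050 and 0.19, Ndufa13 0.015 and 0.19, Sdhc 0.075 and 0.22, Uqcr10 0.17 and 0.34, Atp5a1 0.085 and 0.26, and Vdac1 0.043 and 0.21. Without crystallins alone, Mtpap turned to 0.0036, Ndufa9 to 0.079, Sdha to 0.16, Cox6c to 0.069, Ndufa4 to 0.088, Atp5g2 to 0.0075 and Tomm22 to 0.052. At equal totals without LOC108167755, a setting chosen after seeing the data, the log2 change turned to 0.096 for mt-Nd2, 0.14 for mt-Co3, 0.048 for mt-Nd4, 0.090 for mt-Nd5, 0.039 for mt-Nd6, 0.0065 for Tfam, 0.031 for Sdhc, 0.11 for Uqcr10 and 0.033 for Atp5a1. Median-ratio scaling turned mt-Nd2 to 0.0011 and mt-Co3 to 0.048. Quantile normalization turned mt-Nd2 to 0.039, mt-Co3 to 0.12, mt-Nd5 to 0.017, mt-Nd6 to 0.052, mt-Tl1 to 0.16 and Uqcr10 to 0.078.

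On leaving out 1 library, log2 changes ran from -0.026 to 0.16 for mt-Rnr2, -0.080 to 0.43 for mt-Nd1, -0.31 to 0.21 for mt-Nd2, -0.092 to 0.18 for mt-Co1, -0.047 to 0.32 for mt-Co2, -0.016 to 0.18 for mt-Atp8, -0.075 to 0.099 for mt-Co3, -0.13 to 0.23 for mt-Nd4l, -0.31 to 0.11 for mt-Nd4, -0.24 to 0.12 for mt-Nd5, -0.39 to 0.17 for mt-Nd6, -0.22 to 0.23 for mt-Cytb, -0.42 to 0.42 for mt-Tv and -0.45 to 0.14 for mt-Tl1. Leaving out WT replicate 1 or 3 leaves a single WT library in these rows, which is then assumed to vary like the FNcKO libraries.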
